A study of Homo sapiens with 36 samples.

Results

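The genes described here carry carbon from citrate and acetate to palmitate in the cytosol: SLC25A1, ACLY, ACSS2, ACACA, ACACB and FASN. They were found by symbol in the deposited count table, and all 6 of 6 were present among its 18932 genes. RNA-seq was done on HepG2, a single human hepatoma cell line with hepatocyte features, in serum-free DMEM. Cells received docosahexaenoic acid (DHA, 50 µM), propionate (PRO, 70 µM), protocatechuic acid (PCA, 20 µM), DHA + PRO, DHA + PCA or no supplement (Ctrl) for 6 or 24 h. DHA was carried on bovine serum albumin and dissolved in ethanol, PCA was dissolved in acidified DMSO and PRO in water, and Ctrl cells received the carriers alone. Each of the 12 groups had 3 samples from independent cultures, and each sample pooled the RNA of 3 culture replicates.

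De novo lipogenesis builds fatty acids from carbohydrate-derived carbon and is a characteristic activity of hepatocytes. The mitochondrial citrate carrier SLC25A1 exports citrate, ATP citrate lyase (ACLY) splits it into cytosolic acetyl-CoA and oxaloacetate, and ACSS2 makes acetyl-CoA from acetate. The acetyl-CoA carboxylases ACACA and ACACB convert acetyl-CoA to malonyl-CoA, ACACA in the cytosol for synthesis and ACACB at the mitochondrial outer membrane, where malonyl-CoA inhibits fatty acid import. Fatty acid synthase (FASN) then assembles palmitate. Many of these genes are known targets of the sterol regulatory element-binding proteins, SREBF1 above all, and polyunsaturated fatty acids are known to restrain SREBF1.

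In hg19, the build of the count table, ACLY (NM_001303274), ACACA (NM_198834) and FASN (NM_004104) lay on the minus strand of chromosome 17, at chr17:40023170-40075275, chr17:35441927-35766902 and chr17:80036214-80056106. SLC25A1 (NM_005984) lay at chr22:19163088-19166376 on the minus strand, ACSS2 (NM_001242393) at chr20:33462766-33515769 on the plus strand and ACACB (NM_001093) at chr12:109577202-109706030 on the plus strand. The counts covered exons, and 156 bp (3%) of the annotated exons of ACLY were shared with an antisense lncRNA, ENSG00000274630, so reads there may belong to either gene. No other member shared exonic bases with another gene. ACACA and ACACB are paralogs, and how reads matching both were counted was not given in the sources used here.

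RefSeq start-site windows of 300 bases (GRCh38.p14, 250 before and 50 after the start) were found for 5 of the 6 genes, 10 windows in all; FASN had no entry. The 250 bases before the start are shown for ACLY and ACSS2, which fell in every 24 h comparison with DHA, and for SLC25A1, which passed the test in none. Each reads 5′ to 3′ on the gene's own strand. Capitals mark CCAAT (an NF-Y box), GGGCGG (a GC box) or their complements (ATTGG and CCGCCC).
ACLY, chr17:41919023-41919272, minus strand: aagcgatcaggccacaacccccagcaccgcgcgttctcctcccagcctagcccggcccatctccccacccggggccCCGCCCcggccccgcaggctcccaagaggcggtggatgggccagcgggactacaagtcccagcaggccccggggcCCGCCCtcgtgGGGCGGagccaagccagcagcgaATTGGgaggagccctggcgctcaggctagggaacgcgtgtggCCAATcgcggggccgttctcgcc
ACSS2, chr20:34874739-34874988, plus strand: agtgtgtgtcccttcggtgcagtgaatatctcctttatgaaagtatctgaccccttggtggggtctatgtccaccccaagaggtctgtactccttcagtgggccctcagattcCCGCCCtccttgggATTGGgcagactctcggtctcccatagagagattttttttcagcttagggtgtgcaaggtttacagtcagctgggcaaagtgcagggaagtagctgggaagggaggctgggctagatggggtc
ACSS2, chr20:34876362-34876611, plus strand: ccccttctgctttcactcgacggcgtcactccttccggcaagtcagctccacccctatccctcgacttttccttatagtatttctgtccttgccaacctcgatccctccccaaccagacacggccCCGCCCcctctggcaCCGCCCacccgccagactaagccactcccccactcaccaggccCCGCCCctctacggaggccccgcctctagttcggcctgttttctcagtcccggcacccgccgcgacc
SLC25A1, chr22:19178737-19178986, minus strand: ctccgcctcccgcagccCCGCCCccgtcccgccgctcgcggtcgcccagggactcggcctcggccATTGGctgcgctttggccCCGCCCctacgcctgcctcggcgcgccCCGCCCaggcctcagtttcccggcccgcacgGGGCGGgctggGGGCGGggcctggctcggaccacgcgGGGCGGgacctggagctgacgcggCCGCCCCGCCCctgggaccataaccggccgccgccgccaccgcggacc
ACLY had 2 overlapping windows, of which the upstream one is shown, and each held 2 NF-Y boxes and 4 GC boxes over its 300 bases. In the upstream window 1 of these GC boxes began at +13, past the bases shown. The window of SLC25A1 held 1 NF-Y box and 8 GC boxes. The upstream ACSS2 window held 1 of each and the downstream window 3 GC boxes. Both strands were searched, and GC boxes were allowed to overlap. Over all 35116 windows of the same length in the table, CCAAT was found in 34.6% and GGGCGG in 45%. TCACNCCAC (a sterol regulatory element) was in 0 of the 10 windows and in 1.13% of all windows, and CACGTG (an E-box) in 0 of 10 and in 7.26%. These matches describe letters only.

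Library totals spanned 4659744 to 10788964 counts at 6 h and, at 24 h, 5617341 to 8657882 counts except for replicate 2 of DHA + PRO with 42326734. The hepatocyte markers ALB, APOA1, APOB, TTR, SERPINA1, TF, FGB and AFP were all detected, with a summed level of 20657 to 29185 RPKM (counts scaled by gene length and library size) over the samples. Of 7 markers of other liver cell types, PTPRC and KRT7 had a median of 0 RPKM and no sample of PECAM1 exceeded 0.211 RPKM, while CD68 (median 27.1 RPKM) and ACTA2 (median 28.5 RPKM) were detected. In bulk RNA, fewer cells expressing a gene and less RNA per cell cannot be told apart.

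Per unit length, FASN and SLC25A1 were the most abundant of these transcripts and ACACB the least. Mean levels over all 36 samples were 143 RPKM for FASN, 139 RPKM for SLC25A1, 103 RPKM for ACLY, 54.8 RPKM for ACSS2, 12.5 RPKM for ACACA and 2.22 RPKM for ACACB. In Ctrl cells at 6 h, the ranges of SLC25A1 (110 to 125 RPKM), FASN (91.3 to 119 RPKM) and ACLY (95.4 to 101 RPKM) were close. FASN overlapped both of the others, so its place among them did not exceed the spread, while SLC25A1 and ACLY did not overlap. In Ctrl cells at 24 h, FASN (201 to 237 RPKM) lay above SLC25A1 (147 to 179 RPKM), SLC25A1 above ACLY (127 to 137 RPKM) and ACLY above ACSS2 (89.1 to 101 RPKM), with no overlap. The order of the 3 lowest, ACSS2, ACACA and ACACB, was kept without overlap in Ctrl at both times.

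**Figure D1:**
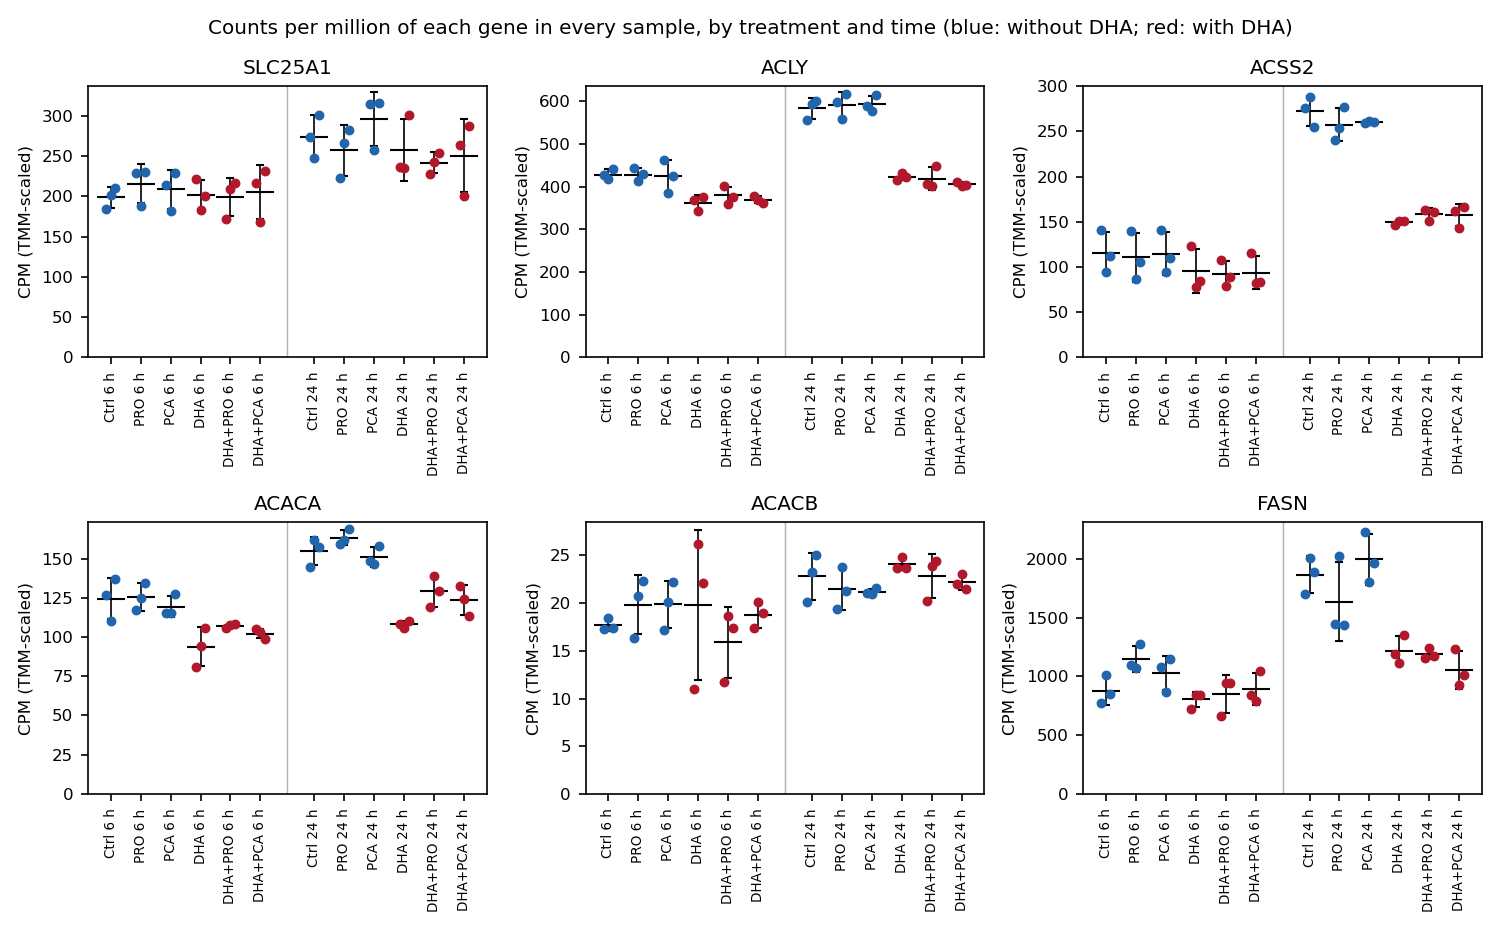
CPM (counts scaled by library size, vertical axis, from 0) of each gene in all 36 samples by treatment and time; points are samples (blue without DHA, red with DHA), horizontal marks are means and bars SDs of 3 samples. At 24 h the red points of ACLY, ACSS2, ACACA and FASN lie below all blue points, while those of SLC25A1 and ACACB overlap them.

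The effect of DHA at 24 h was estimated over 3 pairs of groups, DHA with Ctrl, DHA + PRO with PRO and DHA + PCA with PCA, as the mean of their log2 fold changes. ACSS2, FASN, ACLY and ACACA fell and SLC25A1 and ACACB did not pass the test. A gene was called when its adjusted p in edgeR's quasi-likelihood test was at most 0.05 and its average log2 CPM was above 0. Thus 4 of 6 members were called lower, against 0.942% of the 11893 genes tested (1.23% called in either direction). The members were chosen with earlier results of these data known, so these shares only describe. The median log2 fold change of the 6 genes was −0.44, against 0.01 over all genes tested.

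ACSS2 had the largest pooled change of the 6 genes, although with DHA + PCA the change of FASN was larger. Its levels in Ctrl at 24 h were 275, 287 and 255 CPM, in PRO 241, 254 and 277 CPM, and in PCA 259, 262 and 260 CPM. With DHA they were 147, 151 and 150 CPM, with DHA + PRO 163, 151 and 160 CPM, and with DHA + PCA 162, 144 and 166 CPM. All 9 samples with DHA lay below all 9 without. The pooled log2 fold change was −0.76 (SE 0.0476, adjusted p = 1.84e-10). ACSS2 thus fell by 41.1% (95% interval of the change −45.0 to −37.0%).

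FASN, the last enzyme of the route, ranged from 1437 to 2230 CPM without DHA at 24 h and from 924 to 1352 CPM with DHA. In Ctrl it stood at 1697, 2007 and 1885 CPM and in DHA at 1188, 1114 and 1352 CPM. The samples without DHA were the more spread, since the PRO samples lay at 1448, 2021 and 1437 CPM. The groups did not overlap, but the highest sample with DHA (1352 CPM) lay near the lowest without (1437 CPM). The pooled log2 fold change was −0.66 (SE 0.0720, adjusted p = 2.10e-06), so that the level fell by 36.8%.

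ACLY had narrow groups. Its 9 samples without DHA at 24 h lay between 556 and 617 CPM and its 9 samples with DHA between 400.5 and 449 CPM, with no overlap. In Ctrl the values were 556, 594 and 599 CPM, and in DHA 415, 431 and 422 CPM. The pooled log2 fold change was −0.50 (SE 0.0432, adjusted p = 7.86e-08), so that the level fell by 29.5%.

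ACACA, the cytosolic carboxylase, lay at 145, 162 and 158 CPM in Ctrl at 24 h, and at 108, 106 and 110 CPM in DHA. With DHA + PRO it stood at 119, 139 and 129 CPM and with DHA + PCA at 132, 124 and 113 CPM, between the Ctrl and the DHA samples. Over the 3 pairs it fell by 0.38 on the log2 scale (SE 0.0488, adjusted p = 2.53e-05), and again all 9 samples with DHA were below the 9 without. Such a separation downwards was seen in 0.286% of the genes tested.

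For SLC25A1, the citrate carrier, levels at 24 h ran from 222 to 316 CPM without DHA and from 200 to 301 CPM with DHA. These ranges overlapped along most of their length. Its pooled log2 fold change was −0.14 (95% interval −0.29 to 0.01, adjusted p = 0.559). ACACB, the mitochondrial-surface carboxylase, ran from 19.4 to 25.05 CPM without DHA and from 20.2 to 24.8 CPM with DHA, with a log2 fold change of 0.08 (95% interval −0.07 to 0.23, adjusted p = 0.788). The lower bounds of both intervals lay above the −0.38 estimated for ACACA. That estimate has an error of its own, and differences between genes were not tested.

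The library numbers in the labels fell into a lower and a higher run, split here by number and called the earlier and the later series. The labels name no series, date or batch. The later series held every replicate 3 and, at 6 h, also replicate 2 of DHA + PRO. Within each series the 24 h difference of mean log2 CPM kept its sign for the called genes, at −0.78 and −0.73 for ACSS2, −0.70 and −0.58 for FASN, −0.50 and −0.52 for ACLY and −0.34 and −0.46 for ACACA. Without the deep library of DHA + PRO, the pooled log2 fold changes were −0.76, −0.68, −0.50 and −0.40, and all 4 genes stayed called. Of the 8 hepatocyte markers, 1 was called lower (TF, −0.20, adjusted p = 0.0317), and 0 of the 3 testable markers of other cell types were called. With a replicate block, 3 of the 8 hepatocyte markers were called lower (2.13% of genes) and 1 of the 3 other markers higher (0.959% of genes).

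**Figure D2:**
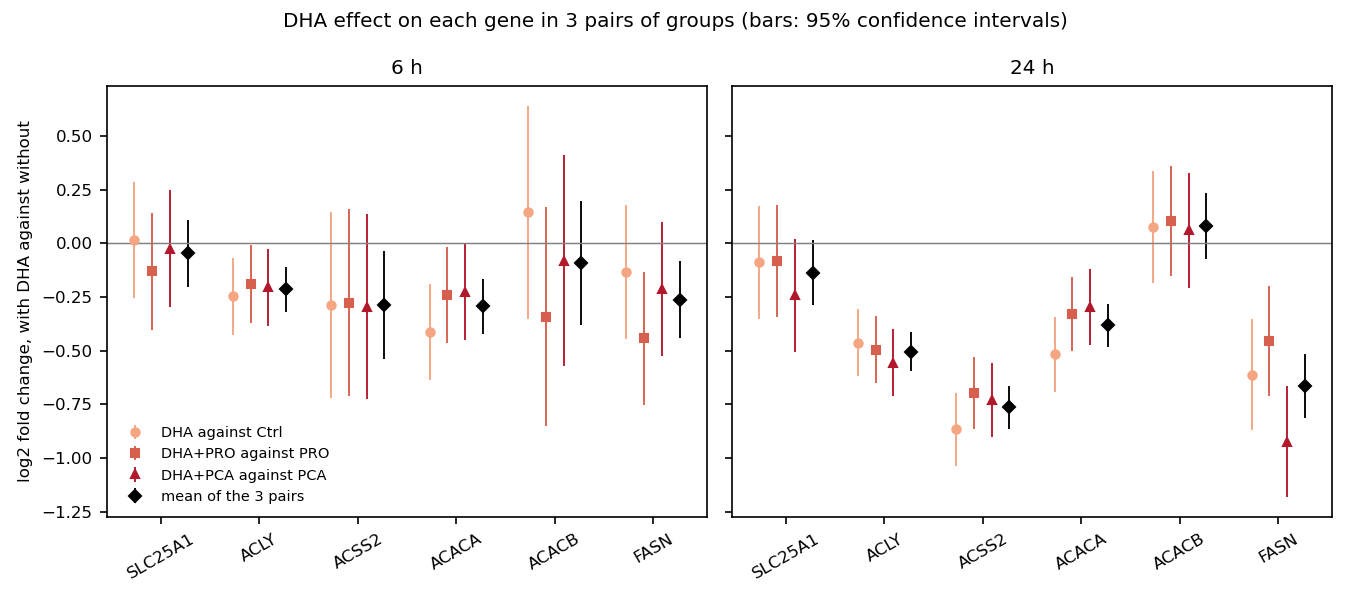
Log2 fold changes (vertical axis) of each gene with DHA against its matched group without DHA at 6 h and 24 h; symbols are the 3 pairs and, as diamonds, their mean, and bars are 95% confidence intervals. At 24 h the intervals of ACLY, ACSS2, ACACA and FASN lie below 0 in every pair, and those of SLC25A1 and ACACB cross 0.

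In the single comparisons at 24 h, ACLY and ACSS2 were called lower in all 5, FASN in 4 and ACACA in 1. The ACACA samples still lay below the compared ones without overlap in all 5, a separation found downwards in 6 to 7.91% of genes. For DHA against Ctrl, 4 of 6 members were called (0.193% of genes called), with log2 fold changes of −0.87 for ACSS2, −0.61 for FASN, −0.52 for ACACA and −0.46 for ACLY. The FASN call there (adjusted p = 0.0356) was lost without replicate 2 of Ctrl (0.280), replicate 3 of Ctrl (0.110), replicate 1 of DHA (0.221) or replicate 2 of DHA (0.271). Against the same Ctrl samples, 3 of 6 were called for DHA + PRO (0.395% of genes) and 3 of 6 for DHA + PCA (0.286%). The genes were in both cases ACSS2 (−0.79 and −0.79), FASN (−0.65 and −0.82) and ACLY (−0.48 and −0.52). These 3 comparisons share their Ctrl samples. For FASN with DHA + PRO the call (adjusted p = 0.0119) was lost without replicate 2 or 3 of Ctrl or without any 1 of the 3 DHA + PRO samples, with adjusted p between 0.0534 and 0.111.

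With PRO or PCA on both sides, DHA gave the same direction. For DHA + PRO against PRO, 2 of 6 were called (0.227% of genes), ACSS2 at −0.70 and ACLY at −0.49, with FASN at −0.45 (adjusted p = 0.222) and ACACA at −0.33 (adjusted p = 0.149). With only the 6 libraries compared, ACLY was not called there (−0.49, adjusted p = 0.114). That fit called 2 genes in all, against 27 with all 18 samples of the time point. The cause was not tested. FASN was called there with a GC-content offset (−0.66, adjusted p = 2.36e-05) and with no filter on low counts (adjusted p = 0.0108), and ACACA by DESeq2 (adjusted p = 0.0224), each passing in 3 of 10 other settings (adjusted p up to 0.530 and 0.593). For DHA + PCA against PCA, 3 of 6 were called (0.277% of genes), FASN at −0.92, ACSS2 at −0.73 and ACLY at −0.56.

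No difference between a co-treatment and DHA alone passed the test for any of the 6 genes. For DHA + PRO or DHA + PCA against DHA at 24 h, 0 of 6 members and 0 of all genes were called by edgeR, and 527 and 276 genes, 1 member in each, had an unadjusted p under 0.05. DESeq2 called 11 and 0 genes, and the edgeR fit with a GC-content offset and replicate block 67 and 13, with 0 members among them. The member with a low unadjusted p was ACACA, at 0.26 for DHA + PRO (95% interval 0.08 to 0.43, adjusted p = 0.999) and 0.19 for DHA + PCA (0.01 to 0.37, adjusted p = 0.999). The samples of both co-treatments were all above the 3 of DHA, a pattern found upwards in 5.85% and 4.73% of the genes tested. With DHA + PCA, ACLY (401 to 410 CPM) and ACACB (21.5 to 23.1 CPM) lay below the DHA samples (415 to 431 CPM and 23.7 to 24.8 CPM), a separation found downwards in 3.12% of genes. For the other 5 genes the intervals of the log2 difference lay within −0.47 and 0.25. The DHA effect with PRO or PCA minus that without was called for 0 of 6 genes, and 0 had an unadjusted p under 0.05. The interval of that difference for FASN with PCA was −0.67 to 0.05.

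PRO and PCA alone left 0 of 6 members called at either time in edgeR, and 0 of all genes were called with the settings used here. An unadjusted p under 0.05 was found for 716 (PRO) and 454 (PCA) genes at 24 h and for 196 and 86 genes at 6 h, and for PRO at 24 h DESeq2 called 1 gene, edgeR without the filter on low counts 10 genes and edgeR with a GC-content offset and replicate block 39 genes, with 0 members among them. FASN with PRO at 6 h had the lowest unadjusted p of these comparisons. It lay at 1097, 1069 and 1272 CPM, above the Ctrl values of 772, 1011 and 847 CPM, a log2 fold change of 0.39 (95% interval 0.07 to 0.70, adjusted p = 1). All 3 treated samples lay above the controls in 3.64% of genes. At 24 h the FASN difference with PRO was −0.19 (95% interval −0.45 to 0.06).

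At 6 h the differences with DHA were smaller. No member was called by edgeR without a replicate block for the pooled effect (0.202% of the 11872 genes called, 0.152% lower). An unadjusted p under 0.05 was found for 2.88% of all genes and for 4 members. Their log2 fold changes were −0.29 for ACACA (adjusted p = 0.0593), −0.21 for ACLY (0.122), −0.29 for ACSS2 (0.9995; 95% interval −0.54 to −0.04) and −0.26 for FASN (0.905). Those of SLC25A1 (−0.05) and ACACB (−0.09) had intervals across 0. DESeq2 called 2 of 6, ACACA and ACLY (45 genes called in all), as did edgeR with the library series as a factor (46 genes). With the replicate block edgeR called 3 of 6, ACSS2, ACACA and ACLY (0.539% of genes called). Over 8 other settings the adjusted p ran from 1.86e-04 to 0.0827 for ACACA (passed in 5), from 4.46e-05 to 0.9999 for ACSS2 (passed in 2) and from 4.71e-06 to 0.939 for FASN (passed in 2). With a GC-content offset, FASN was at −0.32 (adjusted p = 0.00151).

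ACACA was the only member whose 6 h samples separated with all 9 with DHA set against all 9 without. They lay between 110 and 137 CPM without DHA and between 81.2 and 109 CPM with DHA, with no overlap, a separation found downwards in 0.11% of genes. ACLY nearly separated, at 386 to 462 CPM without and 342 to 401 CPM with DHA. In each of the 5 single comparisons with DHA, ACLY and ACACA lay lower without overlap, a separation found downwards in 2.32 to 5.95% of genes. ACSS2 varied with replicate: in Ctrl it stood at 141, 94.7 and 113 CPM, and in DHA at 123, 77.6 and 84.8 CPM. Within the earlier and later library series the 6 h difference of ACSS2 was −0.17 and −0.37, that of FASN −0.38 and −0.19, that of ACACA −0.26 and −0.35 and that of ACLY −0.17 and −0.23. In single comparisons at 6 h, 0 of 6 members were called in any of the 5 with DHA. The genes called were 0.0168% of those tested for each of DHA, DHA + PRO and DHA + PCA against Ctrl, 0.00842% for DHA + PRO against PRO and 0.0253% for DHA + PCA against PCA.

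The DHA effect at 24 h minus that at 6 h was then tested directly over both times. The difference of the pooled log2 fold changes was −0.49 for ACSS2 (95% interval −0.76 to −0.22), −0.41 for FASN (−0.65 to −0.17) and −0.30 for ACLY (−0.42 to −0.17). For ACACA it was −0.10 (−0.25 to 0.06), for SLC25A1 −0.10 (−0.32 to 0.12) and for ACACB 0.17 (−0.15 to 0.48). The intervals of ACSS2, FASN and ACLY lay below 0. In this edgeR fit, without a replicate block, none of the 6 genes passed the adjustment over 12046 genes. The adjusted p was 0.761 for ACSS2, 0.778 for FASN and 0.153 for ACLY. In that fit 0 genes were called by edgeR and 368 genes (3.05%) had an unadjusted p under 0.05. With the replicate block edgeR called 20 genes (0.166%), with ACSS2 (adjusted p = 3.56e-06) and ACLY (6.96e-04) among them. DESeq2 called 6 genes, with 1 member, ACLY, among them. Over 10 other settings ACLY passed in 4 (adjusted p from 4.01e-04 to 0.307), ACSS2 in 2 (7.10e-08 to 0.823) and FASN in 2 (9.32e-06 to 0.827).

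The levels themselves were higher at 24 h than at 6 h. Without DHA, 5 of 6 members were called higher at 24 h (24.3% of genes called higher). The log2 fold changes were 1.21 for ACSS2, 0.85 for FASN, 0.47 for ACLY, 0.41 for SLC25A1 and 0.35 for ACACA, and ACACB had 0.19 (adjusted p = 0.145). With DHA, 6 of 6 were called higher (22.9% of genes), at 0.72 for ACSS2, 0.44 for FASN, 0.36 for ACACB, 0.31 for SLC25A1, 0.25 for ACACA and 0.17 for ACLY. At 24 h the ACLY level with DHA (400.5 to 449 CPM) was in the range of that without DHA at 6 h (386 to 462 CPM). FASN with DHA at 24 h spanned 924 to 1352 CPM, against 772 to 1272 CPM without DHA at 6 h.

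The time differences were also read against base composition. FASN and SLC25A1 had a GC content of 65.3% and 65.6%, against 48.9 to 54.7% for the other 4 genes. With a GC-content offset, the SLC25A1 differences were 0.06 (adjusted p = 0.463) without DHA and −0.02 (adjusted p = 0.825) with DHA, and the FASN differences were 0.51 and 0.14, both still called. ACLY with DHA was no longer called (0.07, adjusted p = 0.194). The time of culture and any handling that differed between the time points cannot be told apart.

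**Figure D3:**
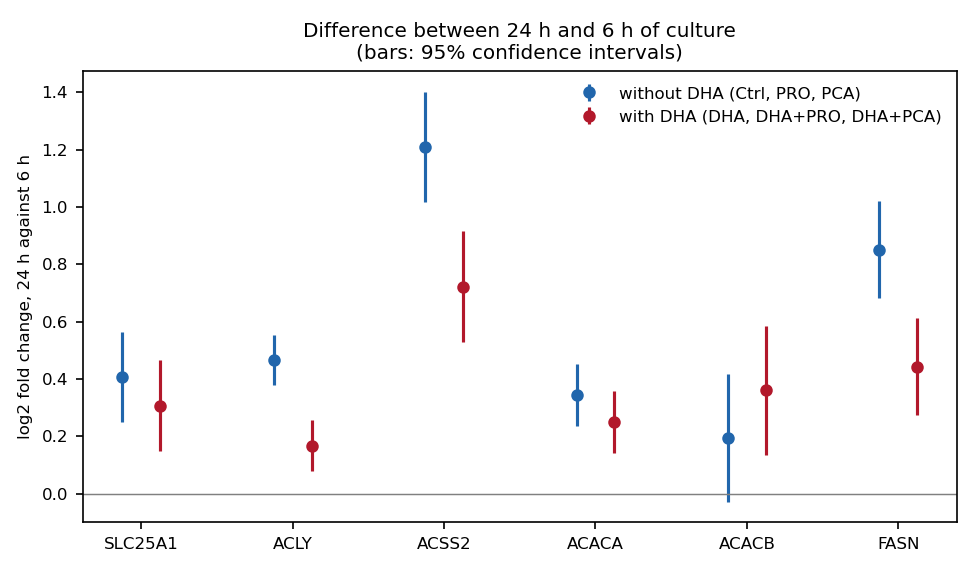
Log2 fold changes (vertical axis) at 24 h against 6 h for each gene, in the groups without DHA (blue) and with DHA (red), with 95% confidence intervals as bars. The estimates without DHA lie above those with DHA for every gene except ACACB, and ACSS2 has the largest, at 1.21 and 0.72.

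The balance between the carboxylases followed from their separate values. At 24 h ACACB made up 11.6 to 14.6% of the summed ACACA and ACACB RPKM in the 9 samples without DHA and 15.2 to 20.2% in the 9 with DHA, with no overlap. At 6 h the shares were 12.1 to 15.9% and 10.7 to 23.04%, the first range lying within the second. The ACACB counts behind these shares ran from 81 to 998 per sample, the lowest of the 6 genes. The ratio of ACLY to ACSS2 RPKM, the enzymes with citrate and acetate as substrates, was 1.32 to 1.62 without DHA and 1.59 to 1.87 with DHA at 24 h, and 1.98 to 3.11 and 1.95 to 2.97 at 6 h. FASN RPKM was 10.1 to 17.8 times that of ACACA without DHA at 24 h and 8.77 to 14.5 times with DHA.

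**Figure D4:**
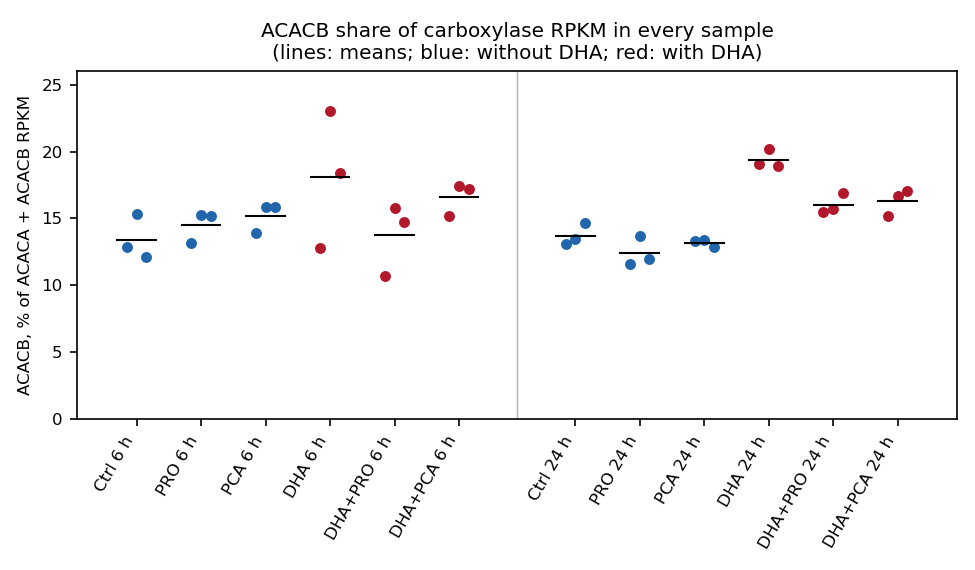
ACACB as a percentage of summed ACACA and ACACB RPKM (vertical axis, from 0) in every sample of the 12 groups; points are samples (blue without DHA, red with DHA) and lines are means of 3. At 24 h the red points (15.2 to 20.2%) lie above the blue points (11.6 to 14.6%), and at 6 h they overlap.

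Over the 12 group means of log2 CPM, the 6 genes went together to different degrees. Pearson's r was 0.95 for ACSS2 with FASN, 0.94 for ACLY with FASN and 0.93 for ACLY with ACACA, against 0.46 for ACACA with ACACB. After removal of the group means, over 36 samples, r ran from −0.72 for ACSS2 with ACACB to 0.59 for ACLY with ACSS2. It was 0.57 for SLC25A1 with FASN and 0.55 for ACACA with ACACB, but −0.25 for ACSS2 with FASN and −0.15 for ACLY with FASN. The group means share the treatments and the time points, so these values describe the design as well as the genes. The values within groups partly follow replicate number. At 6 h replicate 1 had the highest ACSS2 and the lowest ACACB in every group. Among genes with an average log2 CPM above 2, those whose 12 group means were most like the members' mean included LSS (r = 0.993) and FDFT1 (r = 0.989), enzymes of sterol synthesis, and P2RY8 (r = 0.986), a G protein-coupled receptor.

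Other genes of the pathway were grouped by role. Of 12 tested genes for transcriptional control of lipogenesis, 2 were called lower at 24 h and 0 higher, with a list median of −0.06. SREBF1 fell by 0.68 on the log2 scale at 24 h (SE 0.0933, adjusted p = 7.15e-05) and by 0.63 at 6 h (SE 0.0775, adjusted p = 1.83e-04). At 6 h edgeR called 0 of the 6 members without a replicate block (0.202% of genes) and 3 with it (0.539%). Without it, 4 members had an unadjusted p under 0.05 (2.88% of genes). The SREBF1 difference between the times was −0.05 (SE 0.129). SREBF2, its sterol-regulating paralog, had −0.23 at 24 h (adjusted p = 0.0478), and 14 of 18 fits that left out 1 library lost that call (adjusted p up to 0.116). MLXIPL, the carbohydrate-response factor ChREBP, had −0.08 (adjusted p = 0.860).

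Among 10 modifiers of the carboxylases and the synthase, 1 was called lower, MID1IP1 (−0.33, adjusted p = 0.00568), whose protein promotes polymerization of acetyl-CoA carboxylase. Of 11 genes that supply carbon to acetyl-CoA, 0 were lower and 1 higher, ACSS1 (0.31, adjusted p = 0.0130), the mitochondrial counterpart of ACSS2. Without a replicate block, neither the 5 genes of NADPH supply nor the 7 of mitochondrial fatty acid synthesis had a called member, with medians of −0.04 and 0.04. With it, 1 gene of NADPH supply was called higher (0.959% of genes) and 2 of the 10 modifiers lower (2.13%). The mitochondrial list still had 0.

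Among 11 tested genes that use malonyl-CoA or palmitate, 6 were called lower at 24 h and 0 higher, with a list median of −0.41. The stearoyl-CoA desaturase SCD had −0.70, the desaturase FADS2 −0.62, the palmitate elongase ELOVL6 −0.55 and the acyl-CoA ligase ACSL3 −0.51. At 6 h ACSL3 was the single called gene of the list (−0.36, adjusted p = 0.0240), and 9 of 18 fits that left out 1 library lost that call (adjusted p up to 0.0678). The differences between the times were −0.50 for FADS2 and −0.41 for SCD, with adjusted p of 0.171 and 0.761.

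The sterol synthesis genes were listed as comparators, with earlier results of these data known. All 5 of 5 tested were called lower at 24 h and 5 of 5 at 6 h, with list medians of −0.48 and −0.61. At 6 h the call of CYP51A1, the lanosterol demethylase, was lost in 11 of 18 fits that left out 1 library (adjusted p up to 0.0995). HMGCS1, which makes the precursor of mevalonate, had −0.81 at 6 h and −0.72 at 24 h, and SQLE, the squalene epoxidase, −0.52 and −0.36. For MSMO1, a demethylating oxidase of the pathway, the values were −0.80 and −0.48, and the difference between the times was 0.32 (adjusted p = 0.9999; passed in 2 of 10 other settings). The list's median difference between the times was 0.11, against −0.20 for the 6 lipogenic genes and −0.0036 over all genes. In edgeR without a replicate block, 0 genes of either list passed the test of that difference. LSS and FDFT1, sterol enzymes outside the list, had −0.44 (adjusted p = 0.345) and −0.36 (adjusted p = 0.0266) at 6 h and −0.70 and −0.59 at 24 h.

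**Figure D5:**
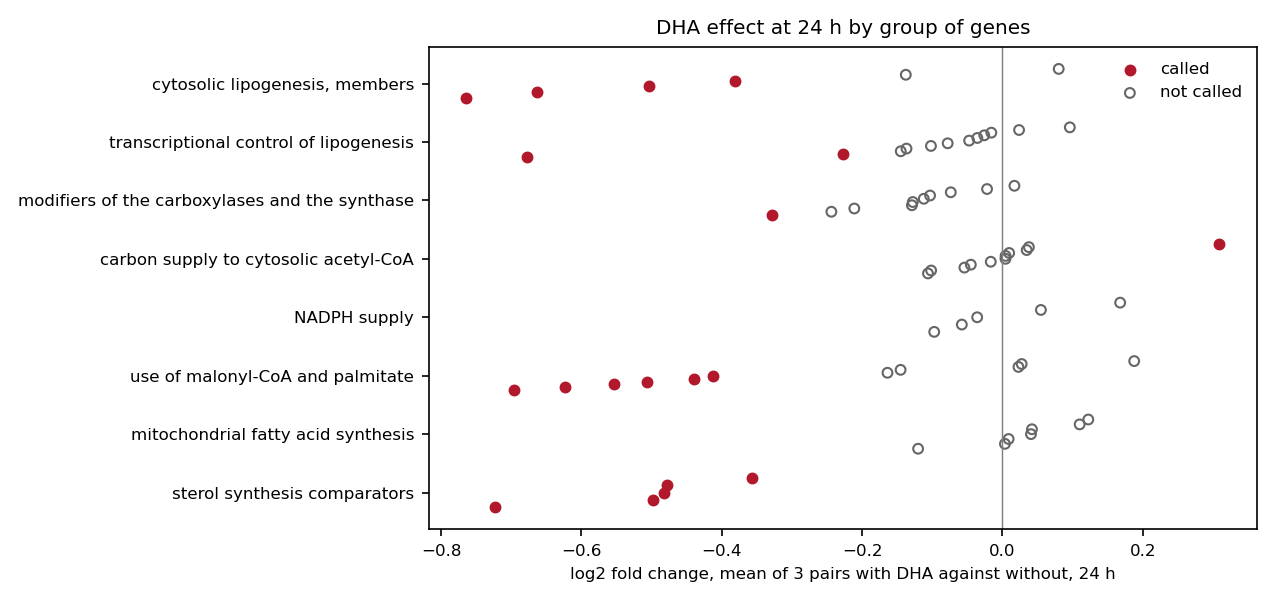
Log2 fold changes of the DHA effect at 24 h (horizontal axis, mean of 3 pairs) for every tested gene of 8 groups (rows); filled points were called and open points were not. Calls are those without a replicate block. The called members lie between −0.76 and −0.38, close to the sterol genes and the genes using malonyl-CoA and palmitate, while NADPH supply and mitochondrial fatty acid synthesis have 0 called genes.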

How the data were processed

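The study measured mRNA in 36 HepG2 samples (TruSeq RNA v2, HiSeq1500). The authors aligned reads to hg19 with STAR, whose version was not given in the sources used here, processed them with iRNA-seq and deposited raw counts per RefSeq gene, with no normalization. The deposited counted gene length in base pairs is of another kind and served only for RPKM. Groups and replicate numbers came from the sample labels. The members and gene lists were chosen with earlier results of these data known.

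Counts were filtered with filterByExpr, scaled by TMM and tested with the quasi-likelihood F test of edgeR 4.0.16 (R 4.3.3) over the 18 samples of a time, or all 36 for differences between times, with Benjamini-Hochberg adjustment over all genes tested. The pooled effect averaged 3 contrasts. Confidence intervals used the SE of that fit. CPM and RPKM used TMM-scaled library sizes. The strand setting of the counting was not given in the sources used here. GC content matched 17756 of 18932 genes (93.8%). All 630 pairs of libraries differed by more than sampling noise (chi-square over its degrees of freedom at least 1.89). On simulated counts for 11807 genes, the pooled 24 h test found 95% of log2 changes of 1 and 78% of 0.5, and DHA against Ctrl found 86% and 43%.

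Named genes were the 6 members, SREBF1, and per other list up to 4 called genes of lowest p. Genes most like the members were taken as the 5 with the highest Pearson's r over 12 group means, and those not named above are not reported here. Protein sequences were not used here. TF, MLXIPL and the markers were named outside that rule, after their values were seen. Alternatives comprised DESeq2 1.42.0 size factors and Wald test, upper quartile scaling, no filter, a replicate block, the library series, a GC-content offset, fits of only the groups compared, the thinned deep library, plain totals for levels, and leaving out each library.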

Additional observations from a re-analysis of the deposited data

How the results depend on the processing

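At 24 h the pooled DHA effect called the same number of members, 4, in all 9 other settings except the GC-content offset with the replicate block, which called 5, and in all 18 fits that left out 1 library. Over all genes, that offset with the block called 775, against 146 in the main fit (edgeR, TMM, no block). Fits that left out 1 library gave 3 to 4 called members for DHA against Ctrl and 2 to 3 for DHA + PRO against Ctrl at 24 h, and did not move the other counts. Numbers of called members moved by more than 1.5 times in these settings. For the pooled effect at 6 h, 0 became 3 with the replicate block, 2 with the library series as a factor, 2 with the GC-content offset, 4 with both that offset and the block, and 2 with DESeq2's Wald test. For the change of the pooled effect between the times, 0 became 2, 1, 1, 3 and 1 in the same order. For the change of DHA against Ctrl, 0 became 1 with the block and 1 with the offset and block. The offset with the block also gave 5 for DHA + PRO against PRO at 24 h, and at 6 h 3 for DHA against Ctrl, 1 for DHA + PRO against PRO, 1 for DHA + PRO against Ctrl and 1 for DHA + PCA against Ctrl. It gave 2 for the change of DHA + PRO against Ctrl and 2 for that of DHA + PCA against Ctrl. With only the groups compared, DHA + PRO against PRO at 24 h fell from 2 to 1 member, through ACLY, and over all genes from 27 calls to 2. Smaller moves at 24 h were from 2 to 3 for DHA + PRO against PRO with no filter, the block, the offset or DESeq2, from 3 to 4 for DHA + PCA against Ctrl with the block, offset and block, or DESeq2, and from 3 to 4 for DHA + PRO against Ctrl and DHA + PCA against PCA with offset and block. The causes of these moves were not tested.

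The sign reversed for SLC25A1 with culture time in DHA samples (−0.0196 with the GC-content offset, −0.0924 with offset and block), for SLC25A1 without DHA (−0.0222 with offset and block) and for ACLY with DHA (−0.0148 with offset and block). A sign change where neither value passed the test is not counted here. ACACB with culture time without DHA was called with the block (0.39), and ACLY with DHA was not (0.09).

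With the replicate block, the members gained beside ACACB above were ACSS2 (adjusted p = 0.00178), ACACA (0.00344) and ACLY (0.00426) for the pooled effect at 6 h, ACSS2 (3.56e-06) and ACLY (6.96e-04) for its change between the times, ACSS2 for the change of DHA against Ctrl (0.0114), and ACACA for DHA + PRO against PRO (0.0328) and DHA + PCA against Ctrl (0.0351) at 24 h. Replicate numbers are shared by the groups, and the library names repeat the same culture replicate numbers in every treatment. The methods describe independent cultures, with the replicates of each pooled. Neither names nor methods state outright that 1 number marks 1 culture across treatments. For that reason the main fits did not take the numbers as pairs. Deviations of same-numbered samples from their group means correlated at a mean r of 0.153 at 24 h (34 of 45 pairs over 0.1, lowest −0.182). At 6 h the mean r was 0.256 (36 of 45, lowest −0.116). Between differently numbered samples of different groups the mean r was −0.0757 at 24 h and −0.125 at 6 h. By these correlations, 17 of 18 samples at 24 h and 16 of 18 at 6 h were closest to their own number. If the numbers mark shared cultures, as the library names hint, the fits with the block are those that keep the pairing. The biological coefficient of variation was 0.105 at 24 h and 0.141 at 6 h, and with the replicate block 0.0825 and 0.0969. ACACB, with 81 to 998 counts per sample, is the gene that depth limits most.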
